A study of Mus musculus with 12 samples.

Results

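Messenger RNA of 8 feedback inhibitors of the ERK pathway, Spry1, Spry2, Spry4, Spred1, Spred2, Dusp4, Dusp5 and Dusp6, was examined in early mouse embryos. They were chosen by gene symbol, from the Sprouty, Spred and dual-specificity phosphatase families, and are 8 of the 18194 genes named on the array. ERK kinases are switched on by a relay from growth factor receptors through Ras, Raf and MEK. Sprouty and Spred proteins act near the top of the relay, at the receptor, Ras and Raf steps, and several of these genes are switched on by ERK signalling itself in many cells. Dusp4, Dusp5 and Dusp6 are phosphatases that remove the activating phosphates from ERK, Dusp4 and Dusp5 in the nucleus and Dusp6 in the cytoplasm. In the blastocyst, FGF and ERK signalling is known for its part in separating primitive endoderm from epiblast.

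The study asked what ERK signalling is needed for before implantation, and measured RNA on 12 Affymetrix arrays, 2 for each of 6 groups of ICR embryos. The controls had 2 cells when collected at day 1.5 and 4 to 8 at day 2.5, and were morulae or blastocysts at day 3.5. Embryos kept in 20 µM U0126, which blocks the MEK kinases, were arrested with 4 cells at day 2.5. Embryos released from that arrest were collected at day 3.5, with 8 cells, and at day 4.5, as morulae to blastocysts. The labels give no vehicle for the controls, no start of treatment and no number of embryos per array. The U0126 embryos differed from day 2.5 controls in both inhibitor and stage, which cannot be told apart. Released embryos were a day older than controls of like stage by the labels, which go by cell number or form.

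Levels below are log2(intensity + 1) of the authors' normalized intensities, and a difference of 1 on this scale is about a doubling. Array medians lay between 10.8 and 11.5 in intensity, which limits any statement near that level. A log2 level of 5 is used as the mark below which a value is called low. The test was limited to the 9930 genes that reached 5 on 2 or more arrays, all 8 inhibitors among them. A gene was called changed at a Benjamini-Hochberg adjusted p under 0.05 in limma's moderated test over those 9930 genes, with the spread pooled over the 6 groups. A call against a group under 5 on both arrays is also given as its distance from the level of 5, written as at least that much. Independent experiments are mentioned in the design text, while the labels neither tie them to replicate numbers nor name separate animals or cultures. The p-values therefore reflect the spread between these arrays, part of which may be technical. Each labelling started from 0.1 µg of RNA, so fewer cells of a type and less RNA per cell cannot be told apart. The differences share arrays: control day 2.5 enters 4 of the 9 comparisons, and U0126 enters 3, so their values are set side by side and not correlated.

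The embryo character of the samples was checked first. Of 9 preimplantation markers on the array, between 0 and 4 were under 5 on both arrays of a group. The leading marker was Oosp1 in control day 1.5 embryos (12.55), Dppa3 in both day 2.5 groups (12.67 in controls and 12.52 under U0126) and Krt8 in the other 3 groups (13.18 to 14.42). In released day 3.5 embryos, 4 of the 9 were called higher and 1 lower than at control day 2.5, and 0 against control day 3.5. Of all 9930 genes, 1257 were called against control day 2.5 and 31 against control day 3.5. By these counts, released day 3.5 embryos lay nearer to control day 3.5 than to controls of like cell number. All 6 sperm markers and all but 1 of the 10 cumulus and granulosa markers were under 5 on both arrays of every group. The exception was Inhbb, at 4.26 and 6.20 under U0126. The summed intensity of the 10 cumulus and granulosa markers was 82 to 142 under U0126 and 66 to 99 elsewhere, and that of the 6 oviduct markers was 75 to 146 under U0126 and 56 to 106 elsewhere. Among the oviduct markers Ovgp1 was at 4.85 and 6.35 under U0126, and reached 5.75 in 2-cell and 5.37 in control day 2.5 embryos. Tppp3 reached 5.07 under U0126, and the other oviduct markers were under 5 on all arrays. The summed intensity of 6 blood and immune markers was 125 to 189 under U0126 against 53 to 58 in control day 2.5 embryos. That difference lay in Cd68, a lysosomal protein of macrophages and other cells, while Ptprc, Lyz2, Hba-a1, Cd79a and Cd3e stayed under 5 on both arrays of both groups. None of these markers was at 0, a value this normalization did not give, and their part in the results under U0126 was not tested.

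The sequences just before 3 of the genes are shown, chosen after their values were seen, because the genes differed in timing: Dusp5 and Spry1 were highest at the 2-cell stage and Dusp6 at later ones. Promoters were matched by symbol to RefSeq's table for GRCm38.p6, which held 6 of the 8 genes and not Spry4 or Dusp4. Each line is the 250 bases before the start of the gene, 5′ to 3′ on its own strand, at chr19:53528895-53529144 for Dusp5, chr3:37639697-37639946 for Spry1 and chr10:99262981-99263230 for Dusp6, all on the plus strand. Capitals mark the matches that were found to the motifs below other than GGAA.
Dusp5: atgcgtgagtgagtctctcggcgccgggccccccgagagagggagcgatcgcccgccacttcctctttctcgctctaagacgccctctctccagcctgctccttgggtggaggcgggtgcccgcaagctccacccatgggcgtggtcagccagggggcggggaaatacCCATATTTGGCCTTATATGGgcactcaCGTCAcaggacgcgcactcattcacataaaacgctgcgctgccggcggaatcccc
Spry1: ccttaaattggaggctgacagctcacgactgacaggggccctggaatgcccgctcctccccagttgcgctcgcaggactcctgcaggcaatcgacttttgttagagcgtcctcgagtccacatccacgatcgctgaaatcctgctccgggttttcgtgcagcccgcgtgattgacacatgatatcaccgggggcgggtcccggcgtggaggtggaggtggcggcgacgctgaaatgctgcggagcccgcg
Dusp6: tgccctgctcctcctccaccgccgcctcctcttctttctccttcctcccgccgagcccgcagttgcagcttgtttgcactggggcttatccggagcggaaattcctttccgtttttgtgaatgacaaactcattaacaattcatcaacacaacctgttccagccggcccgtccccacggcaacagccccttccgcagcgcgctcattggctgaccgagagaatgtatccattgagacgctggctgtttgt
The motifs searched, on both strands, are bound by factors that ERK signalling acts on or that respond to growth factors. CArG boxes, bound by serum response factor, were present in 1.5% of all 32851 promoters of this length and, among the 6, in Dusp5 alone. Dusp5 has 2 of them side by side, beginning 82 and 72 bases before the start: CCATATTTGG and CCTTATATGG. The half-site TGACG of the cyclic AMP response element, held by 17.8% of all promoters, was found on the minus strand 55 bases before the start of Dusp5 and 51 before that of Spred2. The whole element TGACGTCA, which contains that half-site, was found in 1.5% of all promoters, the AP-1 site TGANTCA in 6.7% and the ETS site CCGGAA in 3952 of the 32851, and each in none of the 6. The ETS core GGAA, also contained in CCGGAA, was in all 6 and in 93.4% of all promoters. Median GC content was 62.4% in the 6 and 52.4% over all promoters.

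Of the 3 Sprouty genes, Spry4 and Spry1 were highest in 2-cell embryos and higher under U0126 than in day 2.5 controls, while Spry2 was lowest in 2-cell embryos and on 1 U0126 array. All 3 encode membrane-linked adaptors that dampen signalling from receptor tyrosine kinases.

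Spry4 was at 9.90 and 10.59 in control day 1.5 embryos, 5.21 and 4.91 at day 2.5, and 4.41 and 4.40 at day 3.5. Under U0126 it was at 6.44 and 6.61, after release at 4.73 and 4.41 on day 3.5, and at 4.23 and 4.16 on day 4.5. Both 2-cell arrays stood above all others, the U0126 arrays came next with no overlap with any group, and the other groups lay near or under 5. From control day 1.5 to day 2.5 Spry4 fell by 5.18 ± 0.29 (SE), 36.3-fold, with an adjusted p of 3.55e-07 in limma. U0126 embryos were 1.46 ± 0.29 above control day 2.5 embryos (adjusted p = 0.00965, limma) and differed by -3.72 ± 0.29 from control day 1.5 embryos (adjusted p = 4.76e-06, limma). From the arrest to released day 3.5, Spry4 fell by 1.95 ± 0.29 (adjusted p = 9.61e-04, limma), or by at least 1.52 against the level of 5. The rise under U0126 was not called without control day 2.5 replicate 2 (1.31, adjusted p = 0.0646) or when only the 4 arrays compared were fitted (adjusted p = 0.0809).

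Spry4 has 4 probe sets, and all 4 were higher in 2-cell embryos than at day 2.5. In 1 other set the group means were 10.90 at control day 1.5, 3.64 at day 2.5 and 5.28 under U0126, and the rise under U0126 was 1.63 (adjusted p = 0.0280, limma). Its control day 2.5 arrays were both under 5 (3.51 and 3.78) and its U0126 arrays read 5.04 and 5.51, so that rise lay close to background. The other 2 sets gave 0.72 (adjusted p = 0.291) and 0.17 (adjusted p = 0.818) for that comparison, in limma, the first with all arrays of both groups under 5. These 2 sets gave -0.75 (adjusted p = 0.198) and -0.13 (adjusted p = 0.823) after release, in limma, so the changes of Spry4 around the arrest were called in 2 of its 4 probe sets.

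Spry1 was at 7.64 and 8.07 in 2-cell embryos, 5.71 and 5.93 in control day 2.5 embryos and 6.30 and 6.04 in control day 3.5 embryos. It was at 7.17 and 6.97 under U0126, 6.50 and 5.29 on released day 3.5, and 6.37 and 6.62 on released day 4.5. The 2-cell and U0126 arrays were the 4 highest, and the remaining 8 arrays did not reach them. From control day 1.5 to day 2.5 Spry1 fell by 2.03 ± 0.37 (4.09-fold, adjusted p = 8.46e-04, limma). Under U0126 it was 1.25 ± 0.37 above control day 2.5 embryos (2.37-fold, adjusted p = 0.0492, limma) and differed by -0.79 ± 0.37 from control day 1.5 embryos, which was not called (adjusted p = 0.101, 95% interval -1.61 to 0.03). After release it fell by 1.17 ± 0.37 (adjusted p = 0.0386, limma).

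Both Spry1 calls around the arrest lay close to the threshold. The rise under U0126 was not called in 10 of 12 fits that left out 1 array: 0.210 and 0.129 were its adjusted p without control day 2.5 replicates 1 and 2, 0.168 and 0.0921 without U0126 replicates 1 and 2, and 0.0564 to 0.0704 without 6 arrays of other groups. The fall of Spry1 after release was not called in 9 of those 12. Without released day 3.5 replicate 2, the lower array, it was -0.57 (adjusted p = 0.286), without U0126 replicates 1 and 2 the adjusted p was 0.124 and 0.0805, and without 6 arrays of other groups 0.0518 to 0.0537.

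Spry2 was at 7.38 and 7.29 in 2-cell embryos, 8.82 and 9.32 at control day 2.5, and 8.41 and 9.09 at control day 3.5. Under U0126 the arrays read 6.41 and 8.64, on released day 3.5 they read 8.18 and 8.66, and on released day 4.5 8.16 and 9.21. The 2-cell arrays were tight and low, while 1 U0126 array was the lowest of the 12 and the other lay within the range of the later groups. Spry2 rose from control day 1.5 to day 2.5 by 1.74 ± 0.62 (3.33-fold, adjusted p = 0.0339, limma). The difference of U0126 from control day 2.5 embryos was -1.54 ± 0.62, which was not called (adjusted p = 0.129, 95% interval -2.91 to -0.18). With the replicate number as a block this difference had a standard error of 0.45 and was called (adjusted p = 0.0396, limma), and without U0126 replicate 2 it was -2.66 (adjusted p = 0.00949).

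The rise of Spry2 between control days 1.5 and 2.5 depended on each array compared. The adjusted p was 0.0997 and 0.120 without control day 1.5 replicates 1 and 2, and 0.0626 and 0.147 without control day 2.5 replicates 1 and 2. After release Spry2 differed from U0126 by 0.89 (adjusted p = 0.312, 95% interval -0.48 to 2.26), and by 2.01 (adjusted p = 0.0171) without U0126 replicate 2. The other Spry2 probe set was under 5 on all 12 arrays.

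The 2 Spred genes, whose products block the activation of Raf and help recruit neurofibromin to Ras, parted after control day 2.5, a statement that for Spred2 rests on 1 probe set. Spred1 was lower in control day 3.5, U0126 and released embryos than in control day 2.5 embryos, and Spred2 reached its higher levels in the oldest groups.

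Spred1 was at 8.30 and 8.61 in 2-cell embryos, 9.21 and 9.01 at control day 2.5, and 7.19 and 7.30 at control day 3.5. Under U0126 it was at 7.05 and 7.70, on released day 3.5 at 7.05 and 6.84, and on released day 4.5 at 6.41 and 6.99. The 4 arrays of the first control groups stood above the other 8. From control day 2.5 to day 3.5 Spred1 fell by 1.87 ± 0.31 (3.65-fold, adjusted p = 0.00253, limma). U0126 embryos differed by -1.74 ± 0.31 from control day 2.5 embryos (3.33-fold lower, adjusted p = 0.00607) and by -1.08 ± 0.31 from control day 1.5 embryos (adjusted p = 0.0129), both in limma. Released day 3.5 embryos differed by -2.16 ± 0.31 from control day 2.5 embryos (4.47-fold lower, adjusted p = 0.00279, limma). Their difference from control day 3.5 embryos was -0.29, which was not called (95% interval -0.97 to 0.38).

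The level of Spred1 was not called changed after release: released day 3.5 minus U0126 was -0.43 (adjusted p = 0.330, 95% interval -1.10 to 0.25). Its difference between 2-cell and control day 2.5 embryos was 0.65 (adjusted p = 0.0944, 95% interval -0.03 to 1.33). The lower level under U0126 missed the threshold against control day 2.5 without that group's replicate 1 (-1.64, adjusted p = 0.0512), with only the 4 arrays compared (adjusted p = 0.0809) and as the mean over the Spred1 probe sets (-0.70, adjusted p = 0.0565). Against control day 1.5 it missed it without that group's replicate 2 (-0.93, adjusted p = 0.0739), without U0126 replicate 1 (-0.76, adjusted p = 0.100) and with only the 4 arrays compared (adjusted p = 0.0714). Of the 7 other Spred1 probe sets, 5 were under 5 on all arrays. The next brightest gave -2.28 for the fall between control days 2.5 and 3.5 (adjusted p = 0.00904), -1.65 under U0126 (adjusted p = 0.0466) and -2.49 on released day 3.5 (adjusted p = 0.0119). For U0126 against control day 1.5 that set gave -0.55, which was not called (adjusted p = 0.369). The other one gave -1.04, -0.87 and -1.39 with no call.

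Spred2 was at 6.55 and 6.09 in 2-cell embryos, 7.32 and 6.87 at control day 2.5, and 8.26 and 7.82 at control day 3.5. It was at 6.80 and 6.53 under U0126, 7.68 and 7.87 on released day 3.5, and 7.99 and 7.81 on released day 4.5. The U0126 arrays lay below both control day 2.5 arrays and overlapped those of the 2-cell stage, while the 6 arrays of the 3 oldest groups were above all others. Spred2 rose by 0.77 ± 0.29 from control day 1.5 to day 2.5 (adjusted p = 0.0432) and by 0.95 ± 0.29 from day 2.5 to day 3.5 (adjusted p = 0.0405), both in limma. After release it rose by 1.10 ± 0.29 (2.15-fold, adjusted p = 0.0175, limma). Under U0126 it differed from control day 2.5 by -0.42 (adjusted p = 0.388, 95% interval -1.07 to 0.22).

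These calls of Spred2 rest on 1 probe set and are small. A second set, at 5 or more on all 12 arrays, gave -0.47 (adjusted p = 0.402), 0.27 (adjusted p = 0.726) and 0.35 (adjusted p = 0.601) for the same 3 differences, so the sign of the first turned. Another gave 0.30 (adjusted p = 0.467), 0.18 (adjusted p = 0.761) and -0.05 (adjusted p = 0.937). The mean over the 5 probe sets of Spred2 kept the direction of all 3 differences, at 0.11, 0.53 and 0.30, and none was called (adjusted p = 0.633, 0.0634 and 0.242). Of 12 fits that left out 1 array, the first step of Spred2 was not called in 6, with an adjusted p of 0.214 when control day 1.5 replicate 2 was left out, 0.248 when it was control day 2.5 replicate 1 and 0.0566 to 0.0598 without 4 arrays of other groups. The control step to day 3.5 was not called in 8: Spred2 had an adjusted p of 0.0646 and 0.226 without control day 2.5 replicates 1 and 2, 0.260 and 0.0525 without control day 3.5 replicates 1 and 2, and 0.0551 to 0.0597 without 4 others. The rise after release was not called without U0126 replicate 2 (0.0802) or released day 3.5 replicates 1 (0.0535) and 2 (0.0969).

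**Figure D1:**
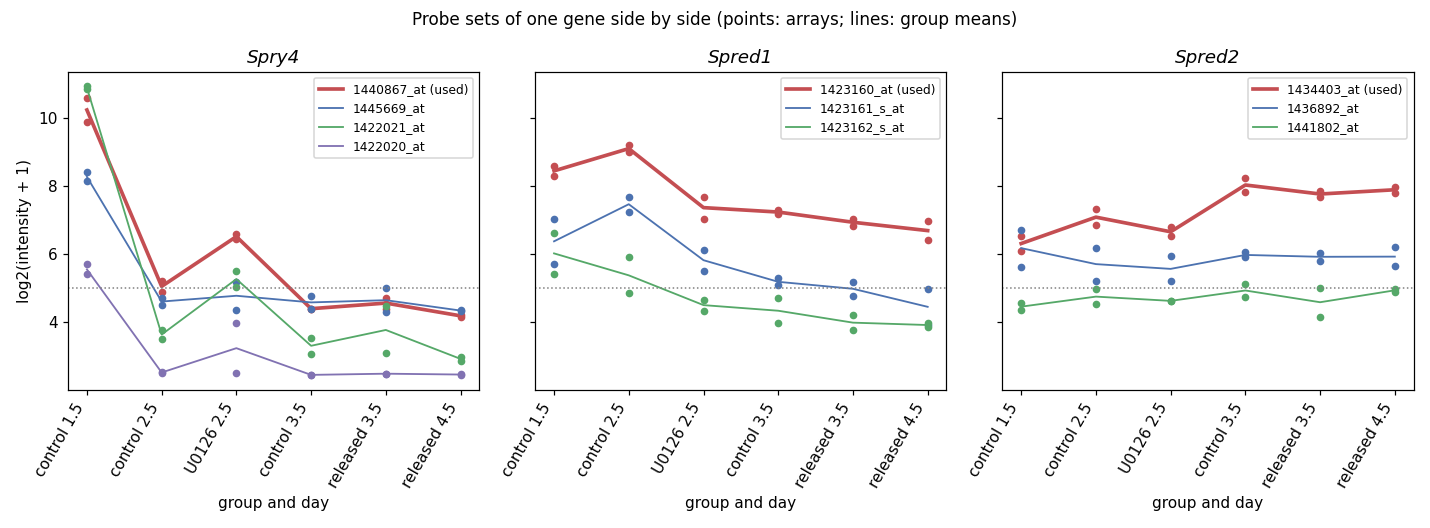
The log2 level of each probe set of Spry4, Spred1 and Spred2 that reached 5 on at least 2 arrays is plotted by group, with points for arrays, lines for group means and a dotted line at 5. The Spry4 sets share the high 2-cell point. No rise was called in the other Spred2 sets shown: over control days 1.5, 2.5 and 3.5 the means were 6.18, 5.71 and 5.99 in 1 and 4.47, 4.76 and 4.94 in the other.

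The 3 phosphatase genes had 3 different time courses. Dusp6 was high at control day 2.5 and again on released day 4.5, Dusp5 was above 5 only in 2-cell embryos, and Dusp4 varied so much between replicates that most of its differences were not called. Each has 1 probe set on the array.

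Dusp6 was at 4.50 and 4.17 in 2-cell embryos, 6.46 and 5.95 at control day 2.5, and 4.72 and 4.55 at control day 3.5. It was at 5.68 and 5.14 under U0126, 4.89 and 4.54 on released day 3.5, and 5.87 and 6.60 on released day 4.5. The control day 2.5 and released day 4.5 arrays were the 4 highest, the U0126 arrays came next, and the other 6 were under 5. Dusp6 rose from control day 1.5 to day 2.5 by 1.88 ± 0.34 (adjusted p = 7.39e-04, limma), at least 1.21 from the level of 5. It fell by 1.57 ± 0.34 from day 2.5 to day 3.5 (adjusted p = 0.00882, limma), again by at least 1.21. Under U0126 it differed by -0.80 ± 0.34 from control day 2.5, which was not called (adjusted p = 0.147, 95% interval -1.54 to -0.06), and was 1.08 ± 0.34 above control day 1.5 (adjusted p = 0.0210, limma), at least 0.41 above the level of 5.

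The released embryos differed from the controls in Dusp6 at the last stage. From released day 3.5 to day 4.5 Dusp6 rose by 1.52 ± 0.34 (adjusted p = 0.0153, limma), and released day 4.5 embryos were 1.60 ± 0.34 above control day 3.5 embryos (3.04-fold, adjusted p = 0.0211, limma), in both cases by at least 1.24 from the level of 5. Released day 3.5 embryos differed by -1.49 ± 0.34 from control day 2.5 embryos (adjusted p = 0.0182, limma), at least 1.21 lower. From control day 3.5 embryos they differed by 0.08, which was not called (95% interval -0.66 to 0.83). The last step of the released embryos minus the last step of the controls, tested as an interaction, was 3.09 ± 0.47 (95% interval 2.04 to 4.14, adjusted p = 0.0129, limma). These steps are matched by label and started from unlike Dusp6 levels, so the interaction includes the control fall to day 3.5. No control was collected at day 4.5. The labels give both day 3.5 controls and day 4.5 released embryos as morula to blastocyst, and the released embryos were a day older, which cannot be told apart from the earlier arrest.

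Single arrays carried the Dusp6 calls past the threshold in several comparisons. The interaction was 3.01 without control day 3.5 replicate 2 (adjusted p = 0.0589), 2.92 without released day 3.5 replicate 2 (0.0510) and 2.72 without released day 4.5 replicate 2 (0.0681). The difference of Dusp6 between released day 4.5 and control day 3.5 had an adjusted p of 0.0565 and 0.183 without control day 3.5 replicates 1 and 2, 0.187 without released day 4.5 replicate 2 and 0.0597 with only the 4 arrays compared. The rise from released day 3.5 had an adjusted p of 0.0586 and 0.0877 without released day 3.5 replicates 1 and 2 and 0.143 without released day 4.5 replicate 2. For Dusp6 on released day 3.5 against control day 2.5, leaving out any of the 4 arrays gave 0.0508 to 0.122. Its fall between control days 2.5 and 3.5 was not called without control day 2.5 replicate 1 (0.0698) or control day 3.5 replicate 1 (0.0525). Its rise of U0126 over control day 1.5 was not called without control day 1.5 replicate 2 (0.109) or U0126 replicate 1 (0.131), nor with only the 4 arrays compared (0.0660).

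Dusp5 was at 5.28 and 7.60 in 2-cell embryos. In the other 5 groups its 10 arrays read 3.68 to 4.50, all under 5, so nothing can be said of its order there. Dusp5 thus passed the filter on low values only through the 2-cell group, where it is high. A lower level elsewhere was built into that selection, so its differences from 2-cell embryos are a description. From control day 1.5 to day 2.5 Dusp5 fell by 2.35 ± 0.58 (adjusted p = 0.00546, limma), by at least 1.44 against the level of 5. The difference of U0126 from 2-cell embryos was -2.32 ± 0.58 (adjusted p = 0.00705, limma), again by at least 1.44. Replicate 1 minus replicate 2 of the 2-cell arrays was -2.32: the fall was -1.20 (adjusted p = 0.0221) without replicate 2 and -3.51 (adjusted p = 7.97e-05) without replicate 1. The corresponding values for U0126 were -1.16 (adjusted p = 0.0295) and -3.48 (adjusted p = 1.33e-04), and with only the 4 arrays compared the adjusted p was 0.0516.

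Dusp4 was at 3.57 and 4.06 in 2-cell embryos, 5.05 and 5.11 at control day 2.5, and 7.65 and 5.84 at control day 3.5. It was at 7.54 and 4.69 under U0126, 7.30 and 6.39 on released day 3.5, and 8.03 and 6.46 on released day 4.5. The 2-cell arrays were the lowest, and the U0126 arrays spanned the control day 2.5 values. Released and control day 3.5 arrays overlapped. Of 9 differences of Dusp4, the one called was U0126 over control day 1.5, 2.30 ± 0.87 (adjusted p = 0.0479, limma), at least 1.11 from the level of 5. Without U0126 replicate 1 it was 0.87 (adjusted p = 0.405), without control day 1.5 replicates 1 and 2 the adjusted p was 0.178 and 0.110, and without 4 arrays of other groups it was 0.0552 to 0.0613. Under U0126 against control day 2.5, Dusp4 differed by 1.03 (adjusted p = 0.495, 95% interval -0.89 to 2.96), and its steps from control day 1.5 to 2.5 and from 2.5 to 3.5 were 1.26 (adjusted p = 0.244) and 1.67 (adjusted p = 0.198). Fitted on the 4 arrays compared, the first of those steps was called (adjusted p = 0.0158), as was released day 3.5 over control day 2.5 (1.76, adjusted p = 0.0468).

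**Figure D2:**
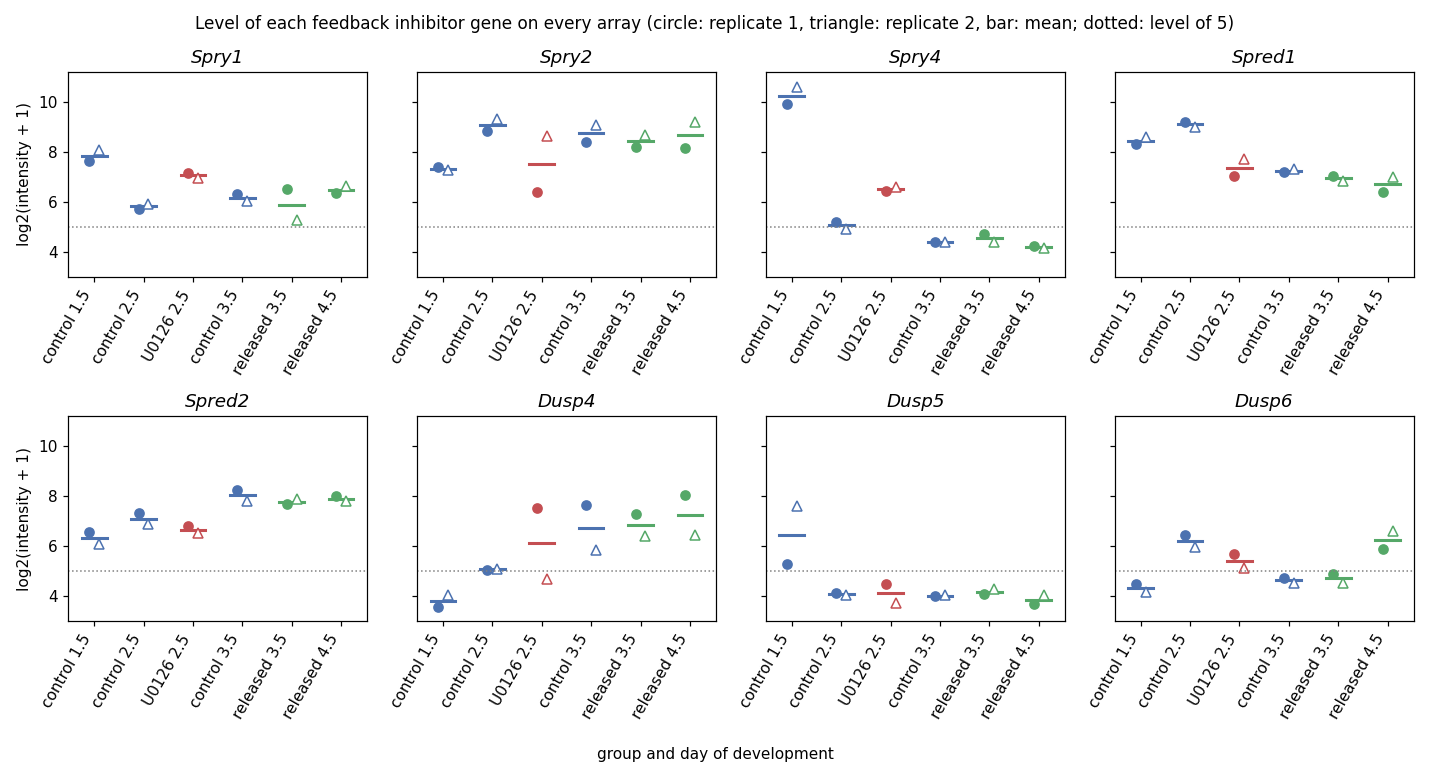
The log2 level of each gene is plotted for each of the 12 arrays by group, 1 panel per gene, with points for replicates, a bar for the group mean and a line at the level of 5. Spry4 stands highest in 2-cell embryos, at 9.90 and 10.59, and Dusp6 in control day 2.5 and released day 4.5 embryos.

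The replicate gaps of Dusp4 and Spry2 ran in opposite senses. Replicate 1 minus replicate 2 was 2.84 for Dusp4 under U0126, 1.81 at control day 3.5, 1.57 on released day 4.5 and 0.90 on released day 3.5, against -0.07 at control day 2.5 and -0.49 at control day 1.5. For Spry2 it was -2.23 under U0126, -1.05 on released day 4.5, -0.68 at control day 3.5, -0.50 at control day 2.5, -0.48 on released day 3.5 and 0.08 at control day 1.5. The gap was widest under U0126 for both genes. Over all genes tested the U0126 arrays were also the least alike, at r = 0.955 between replicates against 0.966 to 0.980 in other groups. Spred2 and Dusp6 were higher in replicate 1 in 5 of 6 groups.

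**Figure D3:**
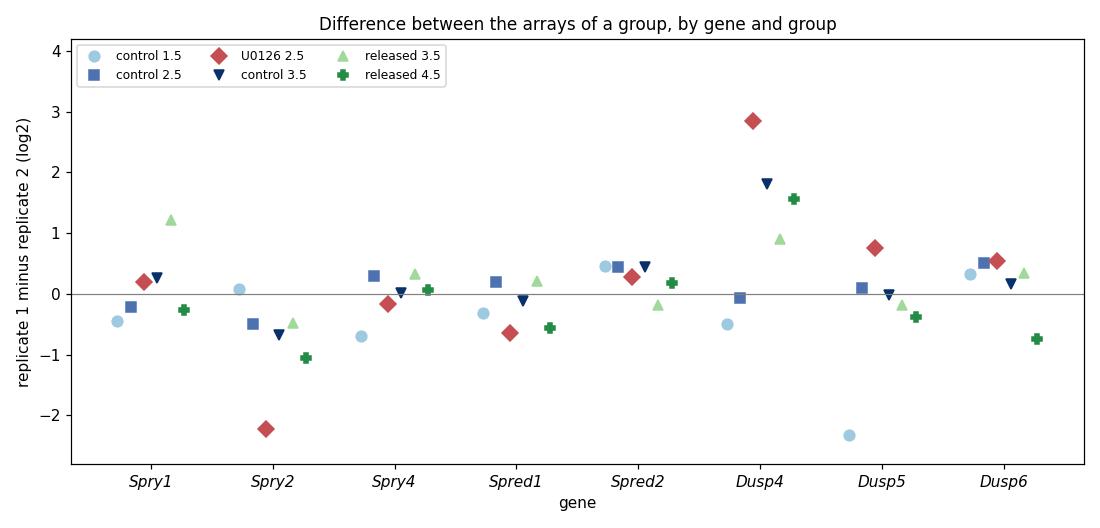
Replicate 1 minus replicate 2 of the log2 level is plotted for each gene and group. The widest gaps are those of Dusp4 (2.84) and Spry2 (-2.23) under U0126 and of Dusp5 (-2.32) in 2-cell embryos.

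Counted over the 8 genes, each comparison was set beside all genes tested. From control day 1.5 to day 2.5, 3 of the 8 rose (Spry2, Spred2 and Dusp6) and 3 fell (Spry1, Spry4 and Dusp5), where 28.0% of all genes rose and 27.4% fell, and the median difference was 0.71 in the 8 and 0.09 over all genes. From control day 2.5 to day 3.5, 1 rose (Spred2) and 2 fell (Spred1 and Dusp6), where 13.4% rose and 8.28% fell, and the medians were -0.19 and 0.09. Against control day 1.5, 2 of the 8 were higher under U0126 (Dusp4 and Dusp6) and 3 lower (Spry4, Spred1 and Dusp5), where 28.1% and 22.0% of all genes were, with medians of -0.30 and 0.18. In the comparisons with control day 1.5 these shares of all genes are large, and the counts of the 8 stand near them. From control day 2.5 to day 3.5 the shares are smaller, and 2 falls among 8 genes is a small count. Dusp5, counted as lower in both comparisons with control day 1.5, passed the filter only through that group.

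Under U0126 against control day 2.5, Spry1 and Spry4 were higher and Spred1 was lower, 3 of the 8. Of all genes 9.21% were higher and 4.72% lower, and the medians were -0.20 in the 8 and 0.11 over all. From the arrest to released day 3.5, Spred2 rose and Spry1 and Spry4 fell, where 13.7% of all genes rose and 14.5% fell, with medians of -0.18 and -0.02. On released day 3.5 against control day 2.5, 0 of the 8 were higher and 2 lower (Spred1 and Dusp6), where 8.61% and 4.05% of all genes were, with medians of -0.21 and 0.09. Centring each array on its median moved the median of all genes by -0.21 under U0126 against control day 2.5 and by -0.21 and -0.20 in control day 3.5 and released day 3.5 against it. The higher share of all calls then went from 66.1% to 47.0%, from 61.7% to 45.4% and from 68.0% to 50.9%. With centred arrays, the rise of Spry1 under U0126 was 1.04 and not called (adjusted p = 0.0835), and the rise of Spred2 to control day 3.5 was 0.74 and not called (adjusted p = 0.0830), with no other call of the 8 lost. The lower level of Spry1 under U0126 than at control day 1.5 was then -0.94 and called (adjusted p = 0.0478, limma).

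Between released and control day 3.5 embryos no difference of these genes was called. The differences ran from -0.34 for Spry2 (95% interval -1.71 to 1.03) to 0.17 for Spry4 (-0.46 to 0.80), and limma called 0 of the 8, with 0 at an unadjusted p under 0.05. Of all genes 0.302% were higher and 0.0101% lower. For Dusp4 the interval was -1.83 to 2.02, so a change within those bounds was not detectable with these arrays. From released day 3.5 to day 4.5, 1 of the 8 rose (Dusp6) and 0 fell, where 7.37% of all genes rose and 6.37% fell. On released day 4.5 against control day 3.5, 1 was higher (Dusp6) and 0 lower, where 3.85% and 2.03% of all genes were.

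Whether the step out of arrest differed from the control step of the same days was tested as an interaction, released day 3.5 minus U0126 less control day 3.5 minus control day 2.5. Limma called 0 of the 8, where 1.01% of all genes were higher and 1.99% lower. Of the 8, 3 had an unadjusted p under 0.05, a looser mark to which those shares do not apply. Spry1 differed by -1.52 ± 0.52 (adjusted p = 0.146), Spry4 by -1.29 ± 0.40 (adjusted p = 0.112) and Spred1 by 1.44 ± 0.43 (adjusted p = 0.0988), all in limma. In the interaction at the last step, described above for Dusp6, 1 of the 8 was higher and 0 lower, where 1.02% and 1.32% of all genes were. Spred1 differed there by 1.62 ± 0.43 (adjusted p = 0.0790), and with the replicate number as a block the standard error was 0.38 and the difference was called (adjusted p = 0.0418, limma). With centred arrays the higher share of all calls went from 33.6% to 52.7% in the first interaction and from 43.5% to 56.2% in the second.

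**Figure D4:**
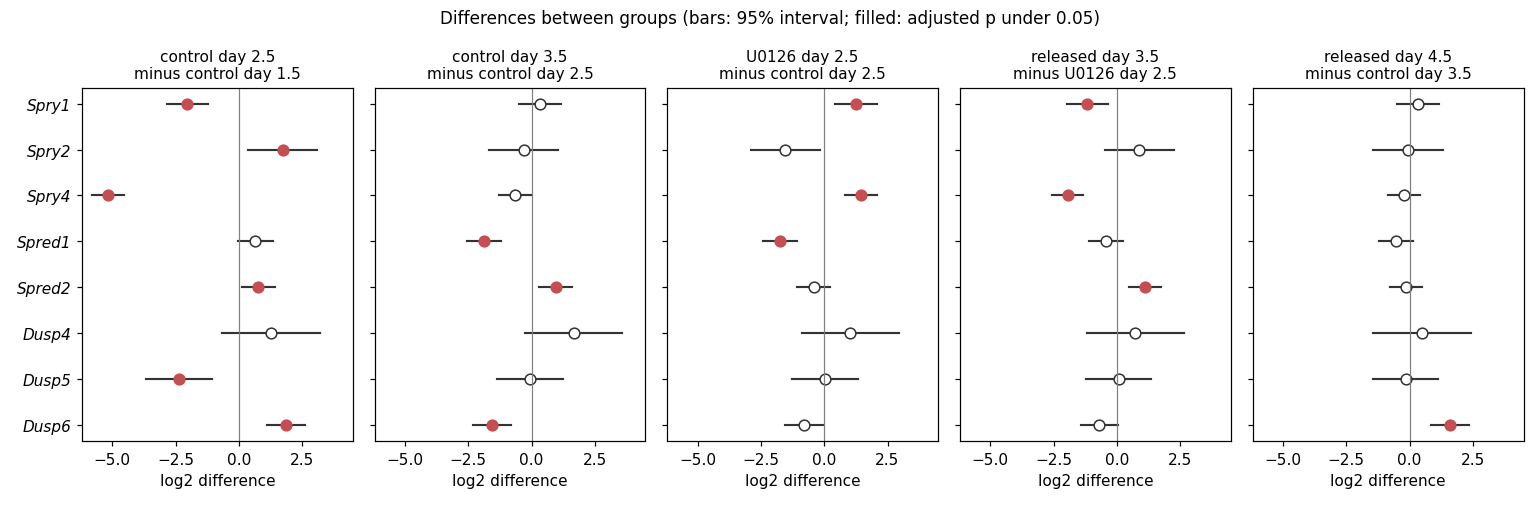
Log2 differences of each gene with 95% intervals from limma are plotted for 5 of the 9 comparisons, with 1 panel each, and filled points mark those called at an adjusted p under 0.05. Spry4 lies at -5.18 in the first panel and at 1.46 under U0126, and Dusp6 is the filled point of the last panel, at 1.60.

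Other genes of the pathway were taken from 4 lists. Of 31 other negative regulators, 22 were tested. Under U0126 against control day 2.5, 4 were higher and 1 lower, where 9.21% and 4.72% of all genes were. Dusp7, a cytoplasmic ERK phosphatase, had group means of 10.22 in 2-cell embryos, 4.33 at control day 2.5 and 6.47 under U0126, the same order as Spry4. It was 2.14 ± 0.38 higher under U0126 than at control day 2.5 (adjusted p = 0.00627, limma), at least 1.47 from the level of 5. Dusp10, which acts mainly on the stress kinases p38 and JNK, was 2.02 ± 0.41 higher (adjusted p = 0.0110), at least 1.71, and Dab2ip, a Ras GTPase activator, differed by -1.15 ± 0.29 with both group means under 5 (adjusted p = 0.0288), both in limma. The median of the 22 was 0.19, against 0.11 over all genes. On released day 4.5 against control day 3.5, 3 of the 22 were higher and 0 lower, where 3.85% and 2.03% of all genes were. Among the 3 were Errfi1, an inhibitor of EGF receptors, by 2.38 ± 0.29 (adjusted p = 0.00172), and Cblb, a ubiquitin ligase, by 2.08 ± 0.43 (adjusted p = 0.0204), both in limma.

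Of 27 cascade and adaptor genes, 18 were tested, and limma called 0 under U0126 against control day 2.5, with 2 at an unadjusted p under 0.05. From control day 1.5 to day 2.5, 7 of the 18 rose and 2 fell, where 28.0% and 27.4% of all genes did. The falls were Map2k1, which encodes MEK1, at -1.57 ± 0.25 (adjusted p = 3.53e-04) and Ptpn11, the phosphatase SHP2, at -2.13 ± 0.25 (adjusted p = 4.16e-05), both in limma. Of 29 ligands and receptors, 17 were tested, and 3 were higher and 1 lower under U0126, where 9.21% and 4.72% of all genes were. The ligand Hbegf was 3.50 ± 0.27 higher (adjusted p = 2.24e-04), at least 2.25 from the level of 5, the ligand Fgf4 was 2.73 ± 0.37 higher (adjusted p = 0.00206), and the receptor Pdgfra differed by -1.78 ± 0.49 (adjusted p = 0.0389), all in limma.

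Of 30 target genes, 19 were tested. Under U0126 4 were higher and 5 lower than at control day 2.5, where 9.21% and 4.72% of all genes were. The transcription factor genes Egr1 and Ets2, classical targets of ERK signalling, were 2.92 ± 0.48 (adjusted p = 0.00459) and 2.30 ± 0.34 (adjusted p = 0.00282) higher, at least 2.18 and 0.37 from the level of 5. Myc differed by -1.69 ± 0.28 (adjusted p = 0.00448) and Srf, which encodes serum response factor, by -1.48 ± 0.30 (adjusted p = 0.0115), all in limma. Egr1 and Ets2 were also the higher targets on released day 4.5 against control day 3.5, by 2.22 ± 0.48 (adjusted p = 0.0252) and 1.90 ± 0.34 (adjusted p = 0.0112), at least 0.53 and 1.62 from the level of 5. In 2-cell embryos Egr1 had a mean level of 8.69, against 4.27 at control day 2.5 and 7.18 under U0126, an order shared with Spry4 and Spry1.

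Among the 8, levels over the 12 arrays ran together in some pairs, as a description in which the points share groups and labelling. Spry4 had a Pearson's r of 0.85 with Spry1 and with Dusp5 (Spearman's rho 0.52 and 0.60), and -0.85 with Spred2 (rho -0.88). Over the 10 arrays without the 2-cell embryos, r of Spry4 was 0.57 with Spry1, 0.18 with Dusp5 and -0.88 with Spred2. Dusp4 had an r of -0.78 with Spred1 (rho -0.76) and 0.75 with Spred2 (rho 0.76). The genes of the whole array whose levels were most like a member's over the 12 arrays were, by Pearson's r, Fam122a (0.956) and Orai1 (0.943) for Spry1, Yipf5 (0.919) and Smarcc1 (0.909) for Spry2, and C86187 (0.995) and Zfp957 (0.993) for Spry4. For Spred1 they were Gm4961 (0.904) and Uhmk1 (0.903), and for Spred2 Zwint (0.982) and Ap2a2 (0.980). For Dusp4 they were Pola2 (0.949) and Slc38a7 (0.944), for Dusp5 Pate14 (0.978) and Cgas (0.960), and for Dusp6 Susd6 (0.891) and Zmiz1 (0.882). Dusp5 was under 5 outside the 2-cell stage, so its r rest on the 2-cell arrays: Pate14 had a mean of 6.10 there and 2.94 to 3.18 elsewhere. C86187 had a mean of 15.05 in 2-cell embryos and 5.09 to 8.72 elsewhere. For these genes r without the 2-cell arrays was not computed.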

How the data were processed

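RNA of 12 embryo samples, 2 for each of 6 groups taken from the sample titles, was labelled in 2 rounds of amplification from 0.1 µg and hybridised to Affymetrix Mouse Genome 430 2.0 arrays, per the labels' protocols. Per probe set, the authors deposited an intensity on a linear scale, made with GCRMA per the submitters' processing notes. GCOS 1.2 and GeneSpring 7.3 are the software in the design text. Steps beyond GCRMA are not stated there, so the unit is arbitrary, and the number of arrays limits the precision. Replicate arrays correlated at r = 0.955 to 0.980 over the 9930 genes tested.

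Of 45101 probe sets, 34958 had 1 gene symbol in the annotation, 932 several and 9211 none. Each gene was represented by its probe set of highest mean log2(intensity + 1), with a pseudocount of 1, and the others were checked. A linear model with a mean for each group was fitted to all arrays in limma 3.58.1 (R 4.3.3), with 6 residual and 4.51 prior degrees of freedom, for 9 differences and 2 interactions. The fit was tested on simulated data with independent normal noise, which held no pairing of replicate numbers, so that test does not bear on such pairing. The smallest exact 2-sided p for 2 arrays a group is 0.333. The alternatives were another pseudocount, 2 other filters on low values, median centring, the replicate block, the compared arrays alone, an intensity trend, the mean over probe sets and leaving out each array. Other probe sets were added after seeing the data.

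The model has no replicate block, and the fit with it is given where it changes a call. Only the fit with the block takes the replicate numbers as pairing the samples, and the main p-values leave that pairing out. In all 15 pairs of groups the deviations of same-numbered arrays correlated, at r = 0.12 to 0.42. The design text speaks of independent experiments without tying them to numbers. The genes, lists and alternatives were chosen with earlier results of these data known. Pathway genes were named by a rule: up to 2 largest called changes in each direction per list in 5 comparisons, of which the text gives a selection. The 2 genes with the highest Pearson's r were named for each inhibitor.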

Additional observations from a re-analysis of the deposited data

Results flagged for a closer look

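The step of Dusp6 from released day 3.5 to day 4.5 minus its step from control day 2.5 to day 3.5 was 3.09 ± 0.47 (SE, adjusted p = 0.0129, limma). It stands out because the last step went up in released embryos, by 1.52, while the control step ending at the same labelled stage, a day earlier, had a difference of -1.57, and the difference between the steps was itself tested. Both arrays of the later released group lay above both of the earlier one, and both control day 3.5 arrays lay below both control day 2.5 arrays. Dusp6 was under 5 in released day 3.5 and control day 3.5 embryos, so both steps start or end near background. The released step started at a mean of 4.72 and the control step at 6.21, so the steps did not start alike. No control at day 4.5 was there to compare.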

How the results depend on the processing

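Of 88 results (8 genes in 11 comparisons), 25 were called, and 8 of these were called under every other setting listed with the processing in which the gene was tested. That was 20 settings, or 19 for Dusp5 and Dusp6, which the filter at a log2 level of 7 left out. Those 8 were the differences of Spry1, Spry4, Dusp5 and Dusp6 between control days 1.5 and 2.5, of Spry4 between U0126 and control day 1.5 and between released day 3.5 and U0126, and of Spred1 between control day 2.5 and both control and released day 3.5. The difference of Dusp5 is a description, since that gene passed the main filter only through its 2-cell arrays. No called result changed sign under any of these settings. The other probe sets are not among these settings. In them Spred2 turned to -0.47 between control days 1.5 and 2.5 and to -0.05 after release. Of the 8 results, the fall of Spry4 after release was not called in 2 other sets (adjusted p = 0.198 and 0.823, limma). Both Spred1 results were not called in 1 other set (adjusted p = 0.151 for control and 0.0893 for released day 3.5, limma). With the filter at 7 the members called went from 6 to 4 for control day 2.5 against 1.5, from 3 to 2 for control day 3.5 against 2.5, from 5 to 3 for U0126 against control day 1.5, from 2 to 1 for released day 3.5 against control day 2.5, and from 1 to 0 for released day 4.5 against released day 3.5, against control day 3.5 and in the last interaction. The calls missing there are those of Dusp5 and Dusp6, which were not tested, and no tested gene of the 8 lost a call. With only the compared arrays, limma called 0 in place of 3 for U0126 against control day 2.5 (3 at an unadjusted p under 0.05), 1 in place of 5 against control day 1.5, 1 in place of 3 for released day 3.5 against U0126 and 0 in place of 1 for released day 4.5 against control day 3.5 (1 at an unadjusted p under 0.05). These fits hold fewer arrays.

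With the replicate block, the last interaction had 2 calls in place of 1, Spred1 being added, Spry2 was added under U0126 against control day 2.5, and no other call of the 8 genes changed. Over all genes, the block moved the calls in the first interaction from 298 to 692 and in the last from 232 to 615. Leaving out 1 array gave 4 to 6 calls for control day 2.5 against 1.5, 1 to 3 for control day 3.5 against 2.5, 1 to 3 for U0126 against control day 2.5, 2 to 5 against control day 1.5, 1 to 3 for released day 3.5 against U0126, 1 to 2 against control day 2.5, 0 against control day 3.5, 0 to 1 for both comparisons of released day 4.5, 0 for the first interaction and 0 to 1 for the last. Over all genes, the calls under U0126 against control day 2.5 were 1384, between 409 (without control day 2.5 replicate 1) and 1389 with 1 array left out, and 0 with only the compared arrays (2245 at an unadjusted p under 0.05, limma). For released day 4.5 against control day 3.5 they were 584, 84 without control day 3.5 replicate 2, and 313 with only the compared arrays. The lowest counts over all genes with 1 array left out were 677 in place of 2148 for control day 3.5 against 2.5 (without control day 3.5 replicate 1), 1630 in place of 2799 for released day 3.5 against U0126 and 268 in place of 1257 against control day 2.5 (both without released day 3.5 replicate 2), 1 in place of 31 against control day 3.5 (without its replicate 1) and 321 in place of 1365 for released day 4.5 against 3.5 (without released day 4.5 replicate 2). For the interactions they were 22 in place of 298 (without control day 3.5 replicate 1) and 30 in place of 232 (without released day 4.5 replicate 2). The cause of these changes was not tested. Signal near background limits Dusp5 in all groups but the 2-cell stage, Dusp6 in 3 groups, Spry4 in 3 and Dusp4 at control day 1.5, the base of its 1 call.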
